A study of Mus musculus with 6 samples.

Results

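The genes described here encode 10 enzymes of de novo nucleotide synthesis: Ppat, Gart, Pfas, Paics, Adsl, Atic and Impdh2 of the purine route and Cad, Dhodh and Umps of the pyrimidine route. They were taken by name from the count table, 10 of its 45527 named genes, and all 10 passed the filter on low counts. RNA was sequenced from muscle satellite cells, the Pax7-expressing stem cells that rebuild muscle fibres, in 3 libraries labelled Paxbp1-iKO and 3 control libraries. Mice of the iKO-labelled group had the genotype Pax7creER:Paxbp1flox/flox:R26R-YFP, in which both alleles of Paxbp1, encoding a partner protein of Pax3 and Pax7, are floxed. The controls were Pax7creER:Paxbp1flox/+:R26R-YFP, with 1 wild-type allele. Both groups thus carried Cre fused to an oestrogen receptor domain under Pax7 control, a construct activated by tamoxifen, together with the R26R-YFP reporter and at least 1 floxed allele. All cells were sorted by YFP 24 h after 30 µl of cardiotoxin, a venom toxin that destroys muscle fibres, had been injected into the lower hindlimb. The series' design names 3 pairs of mice, without their age and without saying which libraries form a pair or come from which mouse. The p-values therefore measure the spread between these libraries, which may be technical.

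Cells make purines by assembling the ring atom by atom on ribose phosphate, with IMP as the first complete nucleotide, from which AMP and GMP branch. Pyrimidines are made the other way round: the ring is closed first, as dihydroorotate, and is then oxidised to orotate and joined to ribose phosphate to give UMP. Resting cells meet much of their need by salvage, the reuse of free bases and nucleosides, while dividing cells lean on the de novo routes for RNA and DNA. By its title, the study concerns the need for Paxbp1 when these stem cells start to cycle again.

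Paics and Ppat, both of the purine route, lie head to head on mouse chromosome 5: in GENCODE M21 (GRCm38) Ppat on the minus strand starts 271 bases beyond the start of Paics on the plus strand, so that their first 272 bases, 76951307 to 76951578, overlap. RefSeq promoter windows of 300 bases (250 before to 50 after the annotated start, GRCm38.p6) were listed for 8 of the 10 genes. They were searched on both strands for the E-box CACGTG, the word bound by Myc and Max, and for TTTNNCGC, a form of the word bound by E2F factors. The E-box stood in 3 of the 8 windows (Paics, Atic and Impdh2) and in 7.2% of all 32851 windows searched. TTTNNCGC stood in 1 of the 8 (Ppat, in 2 places) and in 5.2% of all windows. The 4 windows with a match are shown because they include the head-to-head pair, and capitals mark the matches; a match describes letters only.
Paics (chr5:76951052-76951351, plus strand): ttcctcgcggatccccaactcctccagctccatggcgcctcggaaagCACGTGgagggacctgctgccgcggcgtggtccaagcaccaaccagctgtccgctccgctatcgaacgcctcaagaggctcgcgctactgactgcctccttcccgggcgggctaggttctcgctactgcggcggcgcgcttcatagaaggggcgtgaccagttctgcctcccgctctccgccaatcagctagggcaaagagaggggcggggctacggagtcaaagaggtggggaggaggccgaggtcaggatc
Ppat (chr5:76951529-76951828, minus strand): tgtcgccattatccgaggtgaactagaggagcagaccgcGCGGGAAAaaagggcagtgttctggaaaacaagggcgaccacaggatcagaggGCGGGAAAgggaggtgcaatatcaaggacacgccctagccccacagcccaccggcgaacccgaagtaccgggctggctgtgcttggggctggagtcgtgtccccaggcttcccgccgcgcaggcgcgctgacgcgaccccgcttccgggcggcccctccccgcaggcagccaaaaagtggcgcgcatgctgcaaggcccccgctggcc
Atic (chr1:71556906-71557205, plus strand): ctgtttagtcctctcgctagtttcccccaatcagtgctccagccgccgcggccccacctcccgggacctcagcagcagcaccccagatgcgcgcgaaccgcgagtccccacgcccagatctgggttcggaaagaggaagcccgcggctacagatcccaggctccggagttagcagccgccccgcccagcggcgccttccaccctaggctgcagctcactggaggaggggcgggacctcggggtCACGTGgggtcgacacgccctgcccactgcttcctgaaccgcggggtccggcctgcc
Impdh2 (chr9:108560186-108560485, plus strand): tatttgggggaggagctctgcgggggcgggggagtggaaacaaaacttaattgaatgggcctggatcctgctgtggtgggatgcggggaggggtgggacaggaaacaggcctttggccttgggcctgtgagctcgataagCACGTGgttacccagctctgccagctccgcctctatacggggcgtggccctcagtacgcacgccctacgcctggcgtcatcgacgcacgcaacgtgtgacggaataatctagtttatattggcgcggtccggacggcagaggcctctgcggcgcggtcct

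Total counts per library ranged from 23327359 to 28050748, and 16252 genes were tested. The iKO-labelled libraries had more Paxbp1 messenger RNA than the controls, at 110.2 ± 15.4 and 68.6 ± 6.81 CPM (counts relative to a common scaled library size, mean ± SD, n = 3 each), a direction that goes against their label (log2 fold change 0.68 ± 0.13, adjusted p = 0.00954). The count takes in every exon, deleted or not, and the position of the floxed exons is unknown here, so the libraries are called by their labels. Gart lies 576.6 kb from Paxbp1 on chromosome 16. Fold changes below are log2 of iKO-labelled over control ± SE. The adjusted p is from edgeR's quasi-likelihood test with Benjamini-Hochberg adjustment over all tested genes, and a gene is called below 0.05. Markers of satellite cells summed to between 11182 and 11475 CPM in the iKO-labelled libraries and between 8077 and 8767 CPM in the controls, without overlap. That sum was carried largely by Sdc4, at 6087 ± 214 CPM in the iKO-labelled libraries and 3911 ± 251 CPM in the controls, and of the 8 genes 5 were called higher (Pax7, Vcam1, Cdh15, Sdc4 and Chodl) and 2 lower (Myf5 and Itga7). Of 8 marker lists of other cell types, 7 overlapped between the groups in summed CPM. The exception was the myofibre list, at 20.05 to 22.9 CPM in the iKO-labelled libraries and 60.7 to 72.3 CPM in the controls. Of its 6 genes 1 was called, Actn3 (-1.98 ± 0.19), which made up most of that sum. Actn3 was at 13.2 ± 2.62 CPM in the iKO-labelled libraries and 52.0 ± 5.67 CPM in the controls. The 5 genes not called (Ckm, Myh1, Myh4, Tnnt3 and Pvalb) each overlapped between the groups. The part of either list in the results below was not tested.

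All 10 de novo genes fell in the iKO-labelled libraries. Of all tested genes 12.3% were called lower and 8.15% higher (1991 and 1324 genes); with library totals as the only scaling these counts were 1440 and 1921. None of the 10 was called higher, with edgeR, DESeq2 or limma-voom or at an unadjusted p under 0.05. Their median log2 fold change was -0.66, with a range of -1.03 to -0.34, against a median of 0.02 over all tested genes. For each of the 10, every iKO-labelled library lay below every control, as did 20.9% of all tested genes. Together their transcripts came to 1258, 1163 and 1075 CPM in iKO 1 to 3 and to 1772, 1814 and 1876 CPM in controls 1 to 3. In sorted cells, less RNA in each cell and fewer cells that make it cannot be told apart. A list of 12 S phase genes, among them Mcm2 to Mcm7, Pcna and Rrm2, moved with the de novo genes: all 12 fell, with a median of -2.31 and summed levels of 776 ± 76.4 CPM in the iKO-labelled libraries and 3148 ± 386 CPM in the controls (SD, n = 3 each). Its part in the fall of the de novo genes was not tested.

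**Figure D1:**
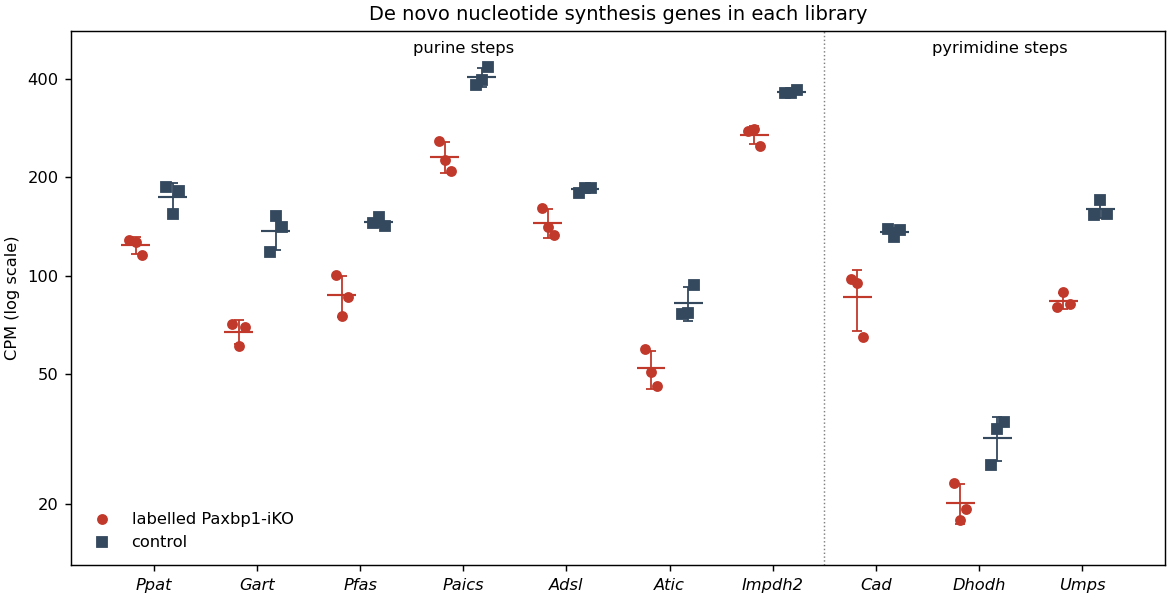
CPM of the 10 genes (log axis) in the 3 iKO-labelled libraries (circles) and 3 controls (squares), with mean and SD as lines and bars; purine genes stand left of the dotted line. In each gene all iKO-labelled points lie below all control points; for Adsl the highest iKO-labelled library was at 161 CPM and the lowest control at 179.6 CPM, and for Dhodh the highest iKO-labelled library was at 23.2 CPM and the lowest control at 26.3 CPM.

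The purine route opens with Ppat (ENSMUSG00000029246.14), the amidotransferase of the committed step, which moves an amide nitrogen from glutamine onto phosphoribosyl pyrophosphate (PRPP). Ppat stood at 129, 127 and 116 CPM in iKO 1 to 3 and at 187, 155 and 182 CPM in controls 1 to 3. Every iKO-labelled library was below the lowest control, control 2 (-0.50 ± 0.10, adjusted p = 0.0114). Gart (ENSMUSG00000022962.15, minus strand of chromosome 16, 91621186 to 91646952) encodes several activities of the next stretch in a single protein, among them a formyl transfer from folate. Its values were 71.3, 60.9 and 69.7 CPM in iKO 1 to 3 and 118, 152 and 141 CPM in controls 1 to 3. Gart had the lowest fold change of the 10 (-1.03 ± 0.12, adjusted p = 0.00112), a level 50.9% lower than in the controls. Pfas, the amidotransferase that spends a further glutamine, was at 101, 75.1 and 86.1 CPM in iKO 1 to 3 and at 145, 152 and 142 CPM in controls 1 to 3. Here the iKO-labelled libraries were spread wider than the controls, and the fall was -0.74 ± 0.12 (adjusted p = 0.0041).

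Paics, a bifunctional enzyme that carboxylates the intermediate and joins aspartate to it, was the most abundant of the 10 per length in the controls. It was at 259, 226 and 209 CPM in iKO 1 to 3 and at 384, 397 and 435 CPM in controls 1 to 3. Its lowest control lay far above its highest iKO-labelled library, and it fell by 0.81 ± 0.097 on the log2 scale (adjusted p = 0.00112). The ratio of Paics to Ppat, each as FPKM (fragments scaled for gene length and library size), was 2.83, 2.51 and 2.54 in iKO 1 to 3 and 2.88, 3.62 and 3.36 in controls 1 to 3. These ratios did not overlap, and their log2 differed by -0.32 between iKO-labelled and control libraries (exact two-sided permutation test, p = 0.1, the smallest that 3 against 3 allows). Libraries of this kind do not mark the strand, so reads in the 272 shared bases cannot be assigned to 1 of these genes by strand.

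Adsl, the lyase that releases fumarate both on the way to IMP and on the branch to AMP, showed the smallest fall of the 10, with values of 161, 141 and 133 CPM in iKO 1 to 3 and 179.6, 186 and 186 CPM in controls 1 to 3 (-0.34 ± 0.092, adjusted p = 0.0346). Its call did not survive the removal of any 1 library other than iKO 1: adjusted p was 0.0617, 0.0963 and 0.1 without controls 1, 2 and 3, and 0.118 and 0.109 without iKO 2 and 3. It ended also with library totals as the only scaling (-0.21, adjusted p = 0.131). Atic carries the last pair of reactions, a formyl transfer and ring closure to IMP. Atic stood at 59.5, 50.8 and 45.8 CPM in iKO 1 to 3 and at 76.2, 76.9 and 93.5 CPM in controls 1 to 3. Control 3 and iKO 3 were its extremes (-0.66 ± 0.14, adjusted p = 0.0141), and the call was lost narrowly without control 3 (adjusted p = 0.0513), iKO 2 (0.0586) or iKO 3 (0.0541). The ratio of Gart to Adsl, a pair picked after the values were seen as the ends of the range, was 0.625, 0.609 and 0.740 in iKO 1 to 3 and 0.930, 1.15 and 1.07 in controls 1 to 3, on FPKM and without a test. The size of this ratio, though not its relative change between groups, depends on the length used for Gart.

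Impdh2 oxidises IMP on the branch to GMP and is the rate-limiting enzyme of that branch. It was at 277, 281 and 249.8 CPM in iKO 1 to 3 and at 363, 361 and 369 CPM in controls 1 to 3. The controls spanned a narrow range, and the fall was among the smaller ones (-0.44 ± 0.072, adjusted p = 0.00484). Its processed pseudogene Impdh2-ps, on chromosome 8 and named after its values were seen, had 25.2 ± 2.07 CPM in the iKO-labelled libraries and 40.3 ± 1.69 CPM in the controls (SD, n = 3 each), and reads could be split between the copies. Summing the counts of gene and pseudogene, a step added once the data had been seen, gave a fold change of -0.46 (adjusted p = 0.0038). The isozyme Impdh1 fell too (-0.52 ± 0.12, adjusted p = 0.0169), with 77.6, 81.3 and 81.6 CPM in iKO 1 to 3 and 133, 104 and 108 CPM in controls 1 to 3. That call was lost without any 1 iKO-labelled library (adjusted p = 0.0573, 0.059 and 0.054 without iKO 1, 2 and 3) and with library totals as the only scaling (0.0525). The ratio of Impdh2 to Impdh1 (FPKM) overlapped between the groups, at 3.83, 3.70 and 3.28 in iKO 1 to 3 and at 2.93, 3.73 and 3.68 in controls 1 to 3 (exact two-sided permutation test, p = 0.6).

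On the pyrimidine route, Cad joins the opening activities in a single long protein, from carbamoyl phosphate to dihydroorotate, and is a known target of growth signalling. Cad (ENSMUSG00000013629.16, plus strand of chromosome 5, 31054780 to 31078479, up to 44 exons) was at 97.6, 95.1 and 64.8 CPM in iKO 1 to 3 and at 139, 131 and 138 CPM in controls 1 to 3. The controls were tight and iKO 3 was well below the other iKO-labelled libraries (-0.66 ± 0.15, adjusted p = 0.0199). Without iKO 3 the fold change was -0.50 and still called, while the call was lost without control 1 (adjusted p = 0.0516) or control 3 (0.0616). Dhodh, the dehydrogenase of the inner mitochondrial membrane that passes electrons from dihydroorotate to ubiquinone, was the least abundant of the 10 per length. Its values were 23.2, 17.8 and 19.3 CPM in iKO 1 to 3 and 26.3, 33.8 and 35.6 CPM in controls 1 to 3, with iKO 1 and control 1 next to each other between the groups (-0.66 ± 0.18, adjusted p = 0.0357). The Dhodh call depended on single libraries, with adjusted p of 0.103 and 0.116 without controls 2 and 3 and of 0.124 and 0.116 without iKO 2 and 3. It was also lost with library totals as the only scaling (-0.53, adjusted p = 0.072). Umps, the bifunctional enzyme that makes UMP from orotate, was called under each of its alternatives. It was at 80.2, 89.0 and 82.1 CPM in iKO 1 to 3 and at 154, 169.8 and 155 CPM in controls 1 to 3, a fall of 47.5% (-0.93 ± 0.091, adjusted p = 0.000507).

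**Figure D2:**
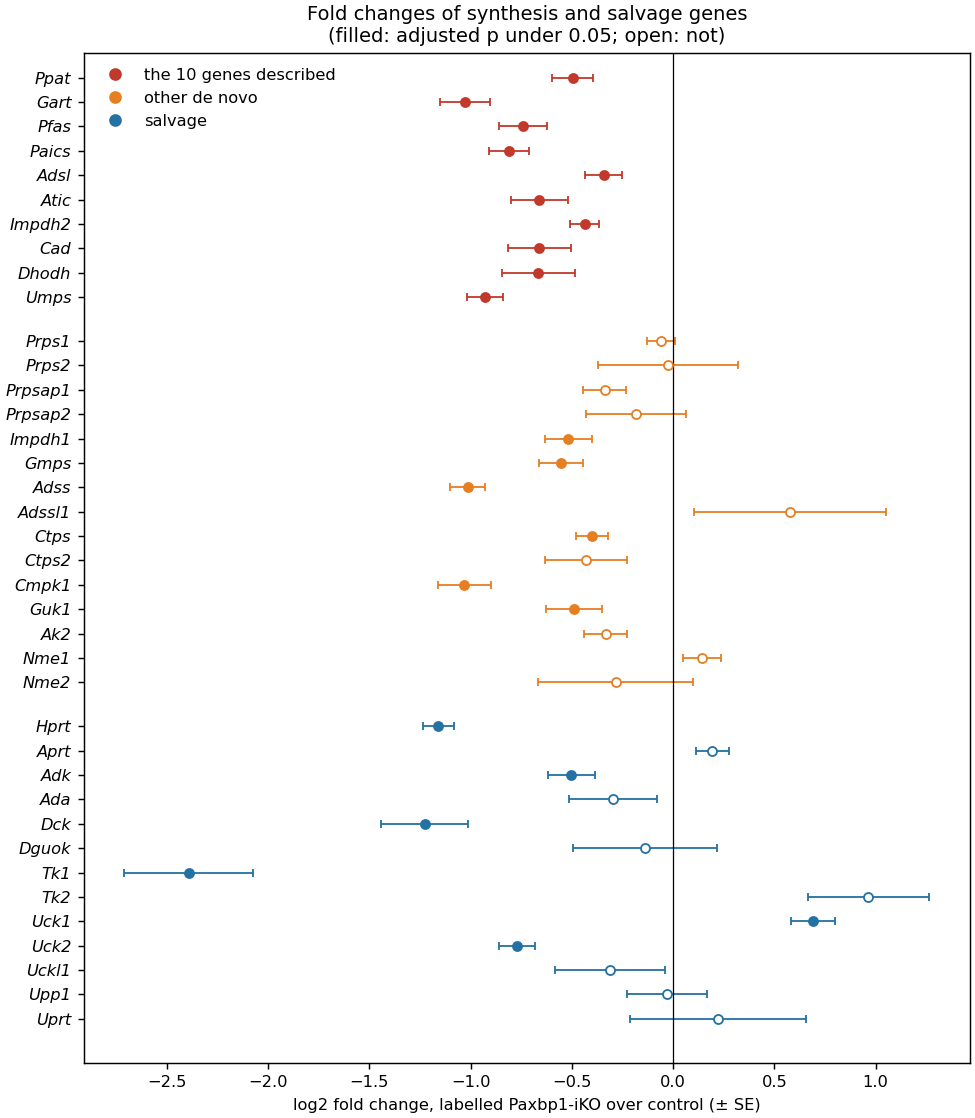
Log2 fold change of iKO-labelled over control libraries (points, with SE bars) for the 10 genes described, the other de novo enzymes and the tested salvage genes; filled points passed an adjusted p of 0.05. The 10 genes lie between -1.03 and -0.34, while salvage genes spread from -2.39 (Tk1) to 0.96 (Tk2, not called).

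The order of transcript levels per length (FPKM, mean ± SD) was alike but not identical in the groups. In the iKO-labelled libraries Impdh2 (86.4 ± 5.5) and Paics (72.7 ± 8.02) led and overlapped in range, and Ppat, Adsl and Umps followed between 27.6 and 23.7, each overlapping with its neighbour. Next stood Gart (16.6 ± 1.4), Pfas (10.9 ± 1.6), Cad (10.4 ± 2.21), Atic (6.43 ± 0.863) and Dhodh (3.14 ± 0.441), of which Pfas and Cad overlapped. In the controls Paics (126 ± 9.26) and Impdh2 (116 ± 2.12) headed the order and overlapped in range, before Umps (44.7 ± 2.76). Ppat (38.5 ± 3.7), Gart (33.5 ± 4.48) and Adsl (31.8 ± 0.951) formed a run in which each range overlapped with the next. Pfas (17.97 ± 0.654), Cad (16.2 ± 0.473), Atic (10.1 ± 1.27) and Dhodh (4.93 ± 0.803) came last, without overlap. Umps ranked 5 in the iKO-labelled libraries and 3 in the controls, and Gart ranked 6 in the iKO-labelled libraries and 5 in the controls. Adsl ranked 4 in the iKO-labelled libraries and 6 in the controls, and Ppat ranked 3 in the iKO-labelled libraries and 4 in the controls. The deposited FPKM imply a length of 3992 bases for Gart, while its exons in GENCODE M21 cover 5144 bases. The level and rank of Gart, and its overlaps with Ppat and Adsl in the controls, rest on the length used.

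The remaining enzymes of the de novo routes behaved unevenly. Of 15 tested, 6 were called lower and none higher, with a median log2 fold change of -0.34. At an unadjusted p under 0.05 there were 8 lower and 0 higher, and so also with DESeq2 and with limma-voom. The shares over all tested genes were 12.3% called lower and 8.15% called higher. Adss, which commits IMP to AMP, was at 166, 179.9 and 152 CPM in iKO 1 to 3 and at 317, 349 and 341 CPM in controls 1 to 3 (-1.01 ± 0.086, adjusted p = 0.000279). Gmps, which completes GMP, fell by 0.55 ± 0.11 (adjusted p = 0.01), and Ctps, which makes CTP from UTP, by 0.40 ± 0.078 (adjusted p = 0.00961). Cmpk1, the kinase of UMP and CMP, was at 32.1 ± 3.62 CPM in the iKO-labelled libraries and 65.5 ± 3.93 CPM in the controls (-1.03 ± 0.13). Guk1, the kinase of GMP, was at 38.8 ± 5.22 CPM in the iKO-labelled libraries and 54.5 ± 2.91 CPM in the controls (-0.49 ± 0.14, adjusted p = 0.0419). That call was lost with library totals as the only scaling, with upper-quartile scaling, and without control 2, control 3 or any 1 iKO-labelled library. Impdh1, described above, was the sixth enzyme called.

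The synthetase of PRPP, the substrate that both routes share, was not called. Prps1 was at 304, 278 and 296 CPM in iKO 1 to 3 and at 303, 298 and 316 CPM in controls 1 to 3 (-0.06 ± 0.07, adjusted p = 0.61), and its sign turned with upper-quartile scaling, library totals or the stricter count filter. Prps2 stood at 20.5, 39.1 and 23.4 CPM in iKO 1 to 3 and at 27.8, 17.0 and 39.7 CPM in controls 1 to 3, so that both groups spread over the same range (-0.03 ± 0.34, adjusted p = 0.969). The ratio of Prps1 to Prps2 (FPKM) ran from 13.8 to 28.9 in iKO-labelled libraries and from 15.5 to 33.9 in controls (exact two-sided permutation test, p = 0.9). Ctps2, the second CTP synthase gene, had 16.8 ± 1.14 CPM in iKO-labelled libraries and 22.7 ± 4.85 CPM in controls (-0.43 ± 0.20, adjusted p = 0.191). The ratio of Ctps to Ctps2 overlapped as well (exact two-sided permutation test, p = 1). Adssl1, the muscle form of adenylosuccinate synthase, was at 2.37 ± 0.397 CPM in iKO-labelled libraries and 1.59 ± 0.452 CPM in controls (0.58 ± 0.48, adjusted p = 0.463).

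Among the 13 salvage genes that could be tested there were 5 lower and 1 higher calls (5 and 2 with DESeq2 and with limma-voom). Their median log2 fold change was -0.30. Over all tested genes 12.3% were called lower and 8.15% higher, so that 1 higher call among 13 was near the share over all genes. The split moved with the scaling and filter: upper-quartile factors and the filter of 5 CPM each gave 5 lower and 3 higher, and library totals gave 4 lower and 3 higher. Hprt, which returns hypoxanthine and guanine to the nucleotide pool with PRPP, had 106, 106 and 115 CPM in iKO 1 to 3 and 243, 241 and 246 CPM in controls 1 to 3 (-1.16 ± 0.076, adjusted p = 0.000115). Its replicates hardly differed within a group. Aprt, the matching enzyme for adenine, was at 192 ± 12.6 CPM in the iKO-labelled libraries and 168 ± 7.1 CPM in the controls and was not called (0.19 ± 0.082, adjusted p = 0.146). Tk1, the thymidine kinase of dividing cells, was at 4.70, 3.68 and 6.81 CPM in iKO 1 to 3 and at 18.7, 26.4 and 34.6 CPM in controls 1 to 3 (-2.39 ± 0.32, adjusted p = 0.00189); it is also on the S phase list. Dck and Adk fell as well.

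The uridine-cytidine kinases went opposite ways. Uck2 was at 255, 309.8 and 300.4 CPM in iKO 1 to 3 and at 492, 509 and 475 CPM in controls 1 to 3 (-0.77 ± 0.088, adjusted p = 0.000903). Uck1 was at 102, 101 and 89.7 CPM in iKO 1 to 3 and at 63.0, 62.3 and 55.9 CPM in controls 1 to 3 (0.69 ± 0.11, adjusted p = 0.00356). Among 6 tested carriers of nucleosides and bases, 1 was called lower and 1 higher, beside 12.3% called lower and 8.15% higher over all tested genes. No pattern in the carriers is read from so few calls. Slc29a1, an equilibrative nucleoside carrier of the cell surface, was at 122 ± 25.3 CPM in the iKO-labelled libraries and 249 ± 20.9 CPM in the controls (-1.02 ± 0.15, adjusted p = 0.00268). Slc29a2, of the same family, was at 36.6 ± 10.3 CPM in the iKO-labelled libraries and 15.7 ± 3.44 CPM in the controls (1.22 ± 0.26, adjusted p = 0.0135), a call lost without iKO 1 (adjusted p = 0.0502) or iKO 2 (0.0527). Slc29a3, the family member of inner membranes, and Slc43a3, a purine base carrier, were not called in the reported edgeR fit (-0.83 ± 0.32 and 0.30 ± 0.15, adjusted p = 0.111 and 0.198). Without control 3 edgeR called Slc29a3 lower (adjusted p = 0.0486), and without a count filter it called Slc43a3 higher (adjusted p = 0.0493).

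**Figure D3:**
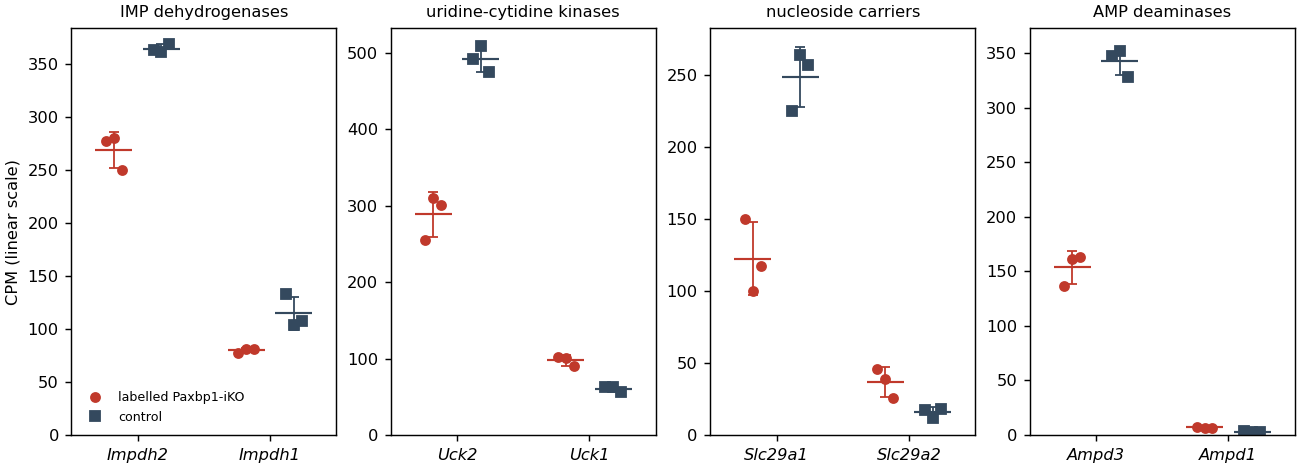
CPM (linear axes from 0) of 4 gene pairs in the 3 iKO-labelled libraries (circles) and 3 controls (squares), with mean and SD as lines and bars. Both IMP dehydrogenases were lower in iKO-labelled libraries, while Uck1, Slc29a2 and Ampd1 were higher there and Uck2, Slc29a1 and Ampd3 lower.

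Among 12 tested breakdown genes 1 was called lower and 1 higher, with a median of -0.27. These counts were near the shares over all tested genes, 12.3% lower and 8.15% higher. DESeq2 called 3 lower and 1 higher, and edgeR called 2 lower and 0 higher without a count filter or without iKO 1. Ampd3, an AMP deaminase, was at 137, 161 and 163 CPM in iKO 1 to 3 and at 348, 352 and 328 CPM in controls 1 to 3 (-1.16 ± 0.09, adjusted p = 0.000194). Ampd1, the deaminase of mature muscle, was scarce, at 7.36, 6.48 and 6.73 CPM in iKO 1 to 3 and at 3.35, 3.02 and 2.38 CPM in controls 1 to 3 (1.23 ± 0.30, adjusted p = 0.0235). The Ampd1 call was lost without any 1 library other than control 1: adjusted p was 0.0713, 0.0679 and 0.069 without iKO 1, 2 and 3, and 0.0529 and 0.0672 without controls 2 and 3. The nucleotidases Nt5c3 and Nt5c2 were not called in the reported edgeR fit (-0.53 ± 0.17 and -0.42 ± 0.15, adjusted p = 0.0682 and 0.0821). DESeq2 called both (adjusted p = 0.022 and 0.0491), and 1 alternative setting of edgeR called Nt5c3 (adjusted p = 0.013).

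Genes that supply the routes fell in the main. Of 22 tested genes for formyl groups, glycine, ribose phosphate, glutamine and aspartate, 14 were called lower and none higher in the reported edgeR fit. Their median log2 fold change was -0.58. Over all tested genes 12.3% were called lower and 8.15% higher. With upper-quartile factors, library totals, no count filter or the filter of 5 CPM, among other settings, edgeR called 12 to 14 lower and 1 higher. DESeq2 called 15 lower and 1 higher, limma-voom 15 and 0, and at an unadjusted p under 0.05 there were 15 lower and 1 higher. Mthfd1, which makes the formyl folate that Gart and Atic consume, was at 124, 115 and 118 CPM in iKO 1 to 3 and at 216, 244 and 232 CPM in controls 1 to 3 (-0.96 ± 0.082, adjusted p = 0.000295). The serine synthesis genes Psat1 (-1.31 ± 0.11) and Phgdh (-1.08 ± 0.11) fell, as did Got2, a mitochondrial aspartate aminotransferase (-0.82 ± 0.083, adjusted p = 0.000566). Psat1 was at 137 ± 13.3 CPM in the iKO-labelled libraries and 341 ± 38.5 CPM in the controls, without overlap.

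The neighbours of the de novo genes were examined because genes that start close together can share a promoter. Besides the Paics and Ppat pair, Gart has a divergent protein-coding partner: Son, a splicing cofactor, starts 554 bases away on the opposite strand. Son was at 324, 330.4 and 373 CPM in iKO 1 to 3 and at 304, 239.7 and 218 CPM in controls 1 to 3 (0.43 ± 0.13, adjusted p = 0.0483), the opposite direction to Gart. That call was narrow and was lost without control 2 (adjusted p = 0.115), control 3 (0.116), or iKO 1, 2 or 3 (0.0822, 0.107 and 0.161). Gm15829, an antisense transcript that starts 799 bases from Umps, was below 1 CPM in each library and was not tested. Impdh2 and Ndufaf3, on opposite strands, overlap by 48 bases, but their starts lie 7148 bases apart. Ndufaf3 rose, at 10.5 ± 2.88 CPM in the iKO-labelled libraries and 4.54 ± 0.908 CPM in the controls (1.21 ± 0.30, adjusted p = 0.0256). Larger overlaps on the opposite strand were those of Gm15964 with Gart (2676 bases) and of 2310040G07Rik with Ppat (19391 bases). Gm15964 was not called (-0.06 ± 1.32, adjusted p = 0.982), and 2310040G07Rik was below 1 CPM in each library and was not tested. Adsl contains a pseudogene, Gm6612, of about 1 CPM in both groups.

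**Figure D4:**
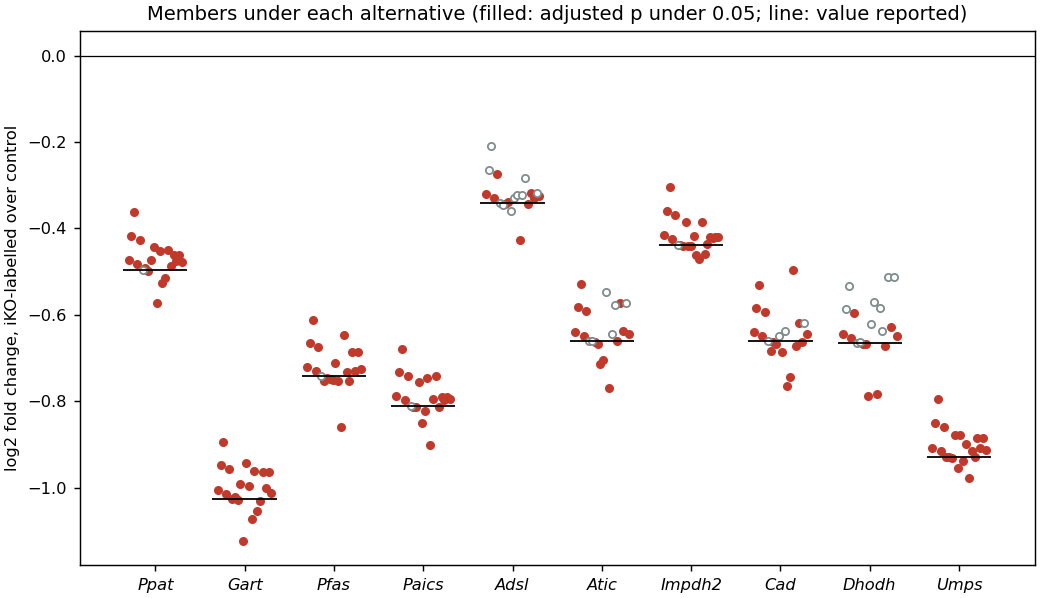
Log2 fold change of the 10 genes under each alternative setting (points) and as reported (black line); filled points had an adjusted p under 0.05, open points did not. All points lie below 0, and open points gather in Adsl, Dhodh, Atic and Cad.

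Every alternative kept the direction of the fall in each of the 10 genes, over 201 values in all. Umps and Gart were called in each alternative, and 6 of the 10 (Umps, Gart, Paics, Pfas, Ppat and Impdh2) in each but the test against a 1.5-fold change. Against that threshold, Umps and Gart alone passed. With 1 library left out, the number of the 10 that were called was lowest without control 3, at 6.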

How the data were processed

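RNA from sorted satellite cells was amplified by Smart-Seq2, per the labels' protocols. Tools listed without roles in the submitters' processing notes are STAR, Trim Galore, Subread, featureCounts and DESeq2, with build mm10. Annotation, strand setting and the treatment of multi-mapping reads are unknown here. The authors deposited raw counts per gene and FPKM; the deposited FPKM equal counts divided by gene length and median-of-ratios size factors (relative deviation at most 9.6e-15 over 11966 genes), and their implied lengths matched GENCODE M21 exon unions within 1 base for 9 of the 10 genes, Gart being the exception. Of 46078 rows, 551 without a gene name (0.108% to 0.123% of counts) were left out.

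Libraries were grouped by title. Counts were filtered with filterByExpr (minimum count 10, total 15), scaled by TMM and fitted with edgeR 4.0.16 (R 4.3.3) with group as the only term; SE is the fold change divided by the square root of F. Ratios were taken on FPKM. No replicate pair was as close as counting alone would make it (chi-square over its degrees of freedom 21.2 to 31.9). The method was also run on counts simulated from its own fitted model, which cannot show how well that model fits these libraries. Alternatives used edgeR, DESeq2 1.42.0 and limma 3.58.1, the latter on counts (voom) and on log2(FPKM + 1) or log2(FPKM + 0.1). The members, gene lists and named genes were chosen with earlier results of these data known. The rule names the 10 genes, Paxbp1, the isozymes Impdh1, Gmps, Adss, Adssl1, Ctps, Ctps2, Prps1 and Prps2, up to 4 tested genes of each other list with the smallest adjusted p, and genes starting within 1 kb on the opposite strand. Guk1, Dck, Adk, Aprt, Tk2, Actn3 and the other myofibre genes, Impdh2-ps, Ndufaf3, Gm15964, 2310040G07Rik and Gm6612 were named after their values were seen. Of 15 salvage genes listed, Pnp was not analysed here, and Cda did not pass the filter. Promoter sequences are RefSeq's, with windows on chromosome 18 left out of the search.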

Additional observations from a re-analysis of the deposited data

How the results depend on the processing

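Of the counts of called genes, those of the 10 de novo genes (10 as reported) were 2 in the test against a 1.5-fold change and 6 on unfiltered log2(FPKM + 1), and ran from 6 to 10 with each library left out. All called genes numbered 3315 (1991 lower, 1324 higher), 817 against a 1.5-fold change, and 2053 to 2816 with a library left out, the fewest without iKO 2 (2053) and iKO 3 (2103). Relative to the reported fit, the median log2 fold change over all genes was higher by 0.13 with library totals, by 0.14 without a count filter and by 0.15 with DESeq2. Library totals gave 1440 lower and 1921 higher, so that the share of lower calls was 42.8% and not 60.1%. Against a 1.5-fold change, called genes numbered 2 of the other de novo enzymes, 2 salvage, 5 supply, 1 breakdown and 1 transporter gene. Breakdown genes (2 as reported) numbered 1 with the replicate block and on unfiltered log2(FPKM + 1), 4 with DESeq2 and 1 to 2 with a library left out; transporters numbered 1 to 3 with a library left out. Other totals of lower and higher calls together stayed within 1.5 times, while the higher calls among salvage genes alone (1 as reported) were 3 with upper-quartile factors, library totals or the filter of 5 CPM.

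Among ratios and named genes, the signs that turned were those of 3 ratios and of Prps1 and Prps2; the cause was not tested. The log2 ratio of Ctps to Ctps2 (0.01) was -0.064 with 1 FPKM added and -0.11 to 0.19 with a library left out. The ratio of Impdh2 to Impdh1 ran from -0.044 to 0.14 and that of Prps1 to Prps2 from -0.33 to 0.26 in the same way. Prps1 was at 0.018 with upper-quartile factors, 0.072 with library totals and 0.0088 with at least 5 CPM in 3 libraries. Prps2 was at 0.059, 0.11 and 0.046 under these, at 0.014 with the length trend removed, 0.011 with limma-voom, 0.0092 on log2(FPKM + 1) with or without a filter and 0.014 on log2(FPKM + 0.1), and from -0.36 to 0.32 with a library left out.

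The labels number both groups 1 to 3 but do not say which libraries pair, so the replicate number was used as a block only in an alternative. Same-numbered libraries did not deviate together (correlations -0.0668, -0.00212 and -0.0593), which cannot show that they are unpaired. With the replicate number as a block, 7 of the 10 de novo genes and 2215 of all genes were called. Among the genes named by the rule, calls were lost for Dhodh, Atic, Adsl, Impdh1, Ampd1 and Son (adjusted p = 0.0947, 0.0509, 0.0861, 0.0535, 0.0693 and 0.0941). Guk1, which is outside that rule, lost its call with the block as well. Precision is limited by 3 libraries a group.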
